A study of Mus musculus with 5 samples.

Results

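Neutrophils of naive mice that carried hashtag MHTO4 were compared with those that carried hashtag MHTO3. The mice were wild-type female C57BL/6J animals with no tumour, and both tags were loaded into the same lane. The study sorted neutrophils from bone marrow, blood and lung of naive mice and of mice bearing AT3 or AT3-gcsf tumours. It labelled each sorted sample with an antibody-bound DNA tag and loaded about 24000 cells per lane, 8000 per tagged sample, with version 3 chemistry of the 10x Chromium system. The labels do not say which tag marks which tissue, and no tissue was assigned to a tag; how many mice stand behind a tag is not stated in the labels. A cell was given a tag when its leading named tag held at least 80% and at least 20 of its named tag counts. It was kept with at least 200 detected genes, under 10% mitochondrial counts and at least 2% of its unique molecular identifiers (UMIs, 1 per captured transcript) from S100a8 and S100a9. The rule left 2062 MHTO4 cells of 2136 tagged and 2739 MHTO3 cells of 2849 tagged, which is 4801 of the 24456 cells that passed the same filters in the 3 libraries of the series. The barcodes of both tags are shown because they alone assign a cell to a group; they have 15 bases, of which 12 differ between them:
MHTO4: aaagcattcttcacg
MHTO3: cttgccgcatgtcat

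Neutrophils are short-lived phagocytes made in the bone marrow. During maturation they fill their granules in order: primary granules with serine proteases in promyelocytes, secondary granules with lactoferrin and cathelicidin in myelocytes and metamyelocytes, and gelatinase granules in band and segmented cells. The transcription factor C/EBPε drives the secondary granule genes, and mature cells stop transcribing most granule genes while they gain the chemokine receptor CXCR2 and leave for the blood.

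Each tag is 1 sample, so there is no spread between replicates and no test was made; a difference between these tags has no replicate check. UMI counts were summed over the cells of a tag and scaled to CPM, which gives both tags the same total. Intervals are 95% and exact (Poisson for a level, Clopper-Pearson for a share of cells) and cover counting error only. The kept cells held 12825187 UMIs in MHTO4 and 6849988 in MHTO3, with a median of 5414 UMIs and 1334 genes per cell in MHTO4 and of 2273 UMIs and 959 genes in MHTO3. Mitochondrial transcripts had a median of 0.333% of UMIs in MHTO4 and 0.225% in MHTO3. Of 7738 naive barcodes, 95.7% had a tag call in the naive hashtag counts, and 44 and 20 barcodes also occurred in the AT3 and AT3-gcsf libraries. All 10 of the neutrophil markers, S100a8 and S100a9 among them, reached 20 CPM in both tags. S100a8 and S100a9, which the rule used, took a median of 37.2% of UMIs per MHTO4 cell and 13.5% per MHTO3 cell.

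MHTO4 cells had much higher levels of secondary granule genes, and lower levels of immediate-early, interferon-stimulated and receptor genes, than MHTO3 cells. Over 4405 genes that reached 20 CPM in the higher tag, 222 (5.04%) were at least 2-fold higher in MHTO4 and 973 (22.1%) at least 2-fold lower, after 5 CPM were added to both values. At least 8-fold differences were fewer: 14 genes were higher and 20 lower. The median log2 ratio of all measured genes was -0.54, and 883 genes were above 0. The 20 most abundant genes of each tag took 55.0% of UMIs in MHTO4 and 33.2% in MHTO3, and S100a8 and S100a9 led both. With TMM scaling, which sets most genes level, the median moved by 0.48 and the split became 440 higher and 385 lower, so 53.3% of the calls were higher with it and 18.6% without. Ratios below are on the CPM scale and are to be read against the median of -0.54. Counts of list members past 2-fold are likewise to be read against 5.04% higher and 22.1% lower over all measured genes.

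**Figure D1:**
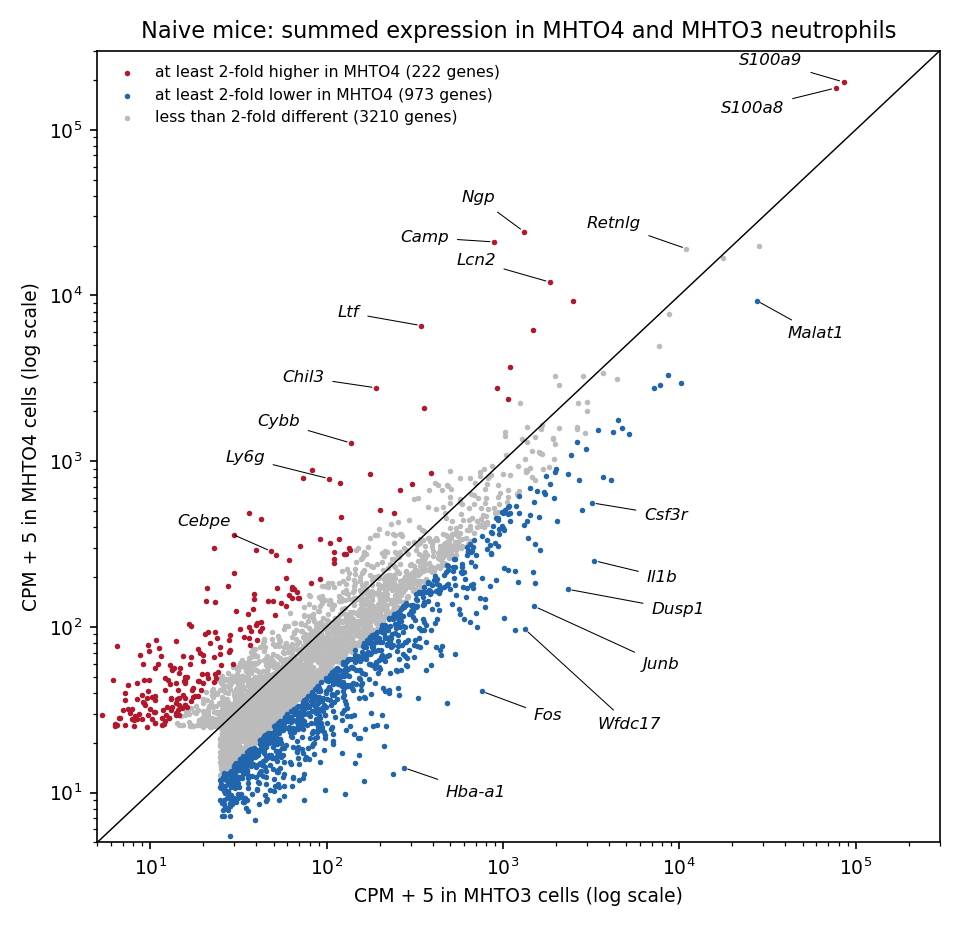
Summed expression of the 4405 measured genes in MHTO4 (vertical axis) against MHTO3 (horizontal axis), as CPM + 5 on log scales, with the line of equal values. The 222 genes at least 2-fold higher in MHTO4 are led by Camp, Ngp and Ltf, and the 973 at least 2-fold lower include Fos, Dusp1, Il1b and Csf3r.

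Secondary granule genes were the group with the highest median ratio among lists with at least 5 measured genes. Of 13 measured members, 10 were at least 2-fold higher in MHTO4 (5.04% of all measured genes were) and 0 lower, with a median log2 ratio of 2.71. Together they took 8.34% of all UMIs in MHTO4 and 1.24% in MHTO3. Camp (ENSMUSG00000038357, chr9:109847379-109849617, minus strand), which encodes the cathelicidin antimicrobial peptide, had 21046 CPM (20967 to 21126) in MHTO4 and 886 CPM (864 to 908) in MHTO3, a log2 ratio of 4.56. Ngp (ENSMUSG00000032484, chr9:110419747-110423012, plus strand), a cathelicidin-related neutrophilic granule protein, had 24292 CPM in MHTO4 and 1311 CPM in MHTO3, a log2 ratio of 4.21. Ltf (ENSMUSG00000032496, chr9:111019271-111042767, plus strand), the iron-binding protein lactoferrin, had 6576 CPM in MHTO4 and 339 CPM in MHTO3, a log2 ratio of 4.26. These 3 genes, all on chromosome 9, had the largest ratios of the list. Positions are those of GENCODE vM21 on GRCm38, the mm10 build that the files use.

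The other 7 higher members spanned log2 ratios of 1.76 to 3.86. Chil3, a chitinase-like protein, had 2767 CPM in MHTO4 and 186 CPM in MHTO3 cells. Olfm4, a granule glycoprotein found in a subset of neutrophils, had 352 CPM in MHTO4 and 24.7 CPM in MHTO3 cells, and UMIs of it were found in 223 of the MHTO4 cells. Cd177, a surface protein stored in secondary granules, had 790.3 CPM in MHTO4 and 68.8 CPM in MHTO3 cells. All of these were higher in MHTO4 by more than their counting intervals. Lcn2, which binds bacterial siderophores, had 12036 CPM in MHTO4 and 1841 CPM in MHTO3 cells, the acute-phase protein gene Orm1 54.6 CPM in MHTO4 and 6.13 CPM in MHTO3, Wfdc21 6161 CPM in MHTO4 and 1467 CPM in MHTO3 and the collagenase gene Mmp8 3704 CPM in MHTO4 and 1087 CPM in MHTO3. The 3 members that did not reach 2-fold were Chil1 (353 CPM in MHTO4 and 184 CPM in MHTO3, log2 ratio 0.92), Pglyrp1, a peptidoglycan-binding protein (3251 CPM in MHTO4 and 1968 CPM in MHTO3, log2 ratio 0.72), and haptoglobin, Hp (2012 CPM in MHTO4 and 2999.9 CPM in MHTO3, log2 ratio -0.58). With TMM scaling 12 of the 13 were at least 2-fold higher, and Hp was the exception at -0.08.

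The 3 promoter windows below are shown because their genes had the largest ratios of this list; each runs from 250 bases before to 50 bases after the start of the gene in RefSeq (GRCm38.p6), and capitals mark matches to TTGCNNAA, a C/EBP-type motif, on either strand.
Camp, chr9:109849407-109849706, minus strand: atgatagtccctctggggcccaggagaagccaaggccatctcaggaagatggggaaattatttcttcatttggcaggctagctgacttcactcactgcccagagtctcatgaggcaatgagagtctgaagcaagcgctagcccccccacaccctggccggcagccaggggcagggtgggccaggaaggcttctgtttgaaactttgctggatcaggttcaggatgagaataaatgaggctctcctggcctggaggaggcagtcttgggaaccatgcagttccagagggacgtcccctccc
Ngp, chr9:110419558-110419857, plus strand: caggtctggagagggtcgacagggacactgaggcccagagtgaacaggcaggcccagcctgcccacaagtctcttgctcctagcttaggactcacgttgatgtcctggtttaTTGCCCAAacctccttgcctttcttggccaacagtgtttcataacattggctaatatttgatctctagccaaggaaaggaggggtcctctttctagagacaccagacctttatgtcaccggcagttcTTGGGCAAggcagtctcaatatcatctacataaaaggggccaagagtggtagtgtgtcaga
Ltf, chr9:111019042-111019341, plus strand: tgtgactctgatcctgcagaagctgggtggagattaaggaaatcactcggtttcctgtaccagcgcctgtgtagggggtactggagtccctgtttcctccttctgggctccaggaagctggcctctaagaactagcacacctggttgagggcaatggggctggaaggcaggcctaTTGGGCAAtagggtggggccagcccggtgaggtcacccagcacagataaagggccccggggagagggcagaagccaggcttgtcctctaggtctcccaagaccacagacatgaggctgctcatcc
Ngp held 2 matches, Ltf 1 and Camp 0. Of the 13 listed genes, 10 had a single window of this kind and 4 of these (40%) held a match. The share was 16.1% of 149 genes at least 2-fold higher in MHTO4, 11.5% of 616 at least 2-fold lower, 8.88% of 2794 measured genes and 10.8% of all 22862 windows. A match is a run of letters in the window and says nothing of binding.

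The secondary granule share was higher in most MHTO4 cells, but the lowest of them lay within the MHTO3 range. The share of a cell's UMIs from secondary granule genes had a median of 3.99% in MHTO4 and 0.905% in MHTO3, with 5th and 95th percentiles of 0.703% and 15.7% in MHTO4 and of 0.425% and 1.79% in MHTO3. Only 182 MHTO4 cells (8.83%, interval 7.64 to 10.1) lay at or below the MHTO3 median, and 19 MHTO3 cells (0.694%, 0.418 to 1.08) lay at or above the MHTO4 median. The MHTO4 cells were widely spread, and most MHTO3 cells lay in a narrow range. The 516 MHTO4 cells with the lowest share, at up to 1.64%, lay under the MHTO3 95th percentile, with a median of 1.06%. Their median Camp was 260 CPM, against 340 CPM in MHTO3, and their median Ngp 349 CPM, against 348 CPM. Median Ltf was 0 in both. Their medians of Lcn2 (938 CPM), Wfdc21 (1436 CPM) and Mmp8 (1098 CPM) were above those of MHTO3 (793, 781 and 589 CPM). In MHTO3, most UMIs of the 3 leading genes came from few cells: the 27 cells with most Camp, 1% of the tag, held 61.4% of its Camp UMIs, and the like share was 73.6% for Ngp and 68.2% for Ltf. The more abundant members were spread more widely in MHTO3, with shares of 27.9% for Lcn2, 11.7% for Mmp8, 7.63% for Pglyrp1 and 4.45% for Hp. In MHTO4 the top 1% of cells held 10.8%, 7.97% and 6.43% of the UMIs of Camp, Ngp and Ltf. With the counts of those cells taken out of the numerator, the level was 18783 CPM in MHTO4 and 341 CPM in MHTO3 for Camp, and 22355 CPM in MHTO4 and 346 CPM in MHTO3 for Ngp.

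**Figure D2:**
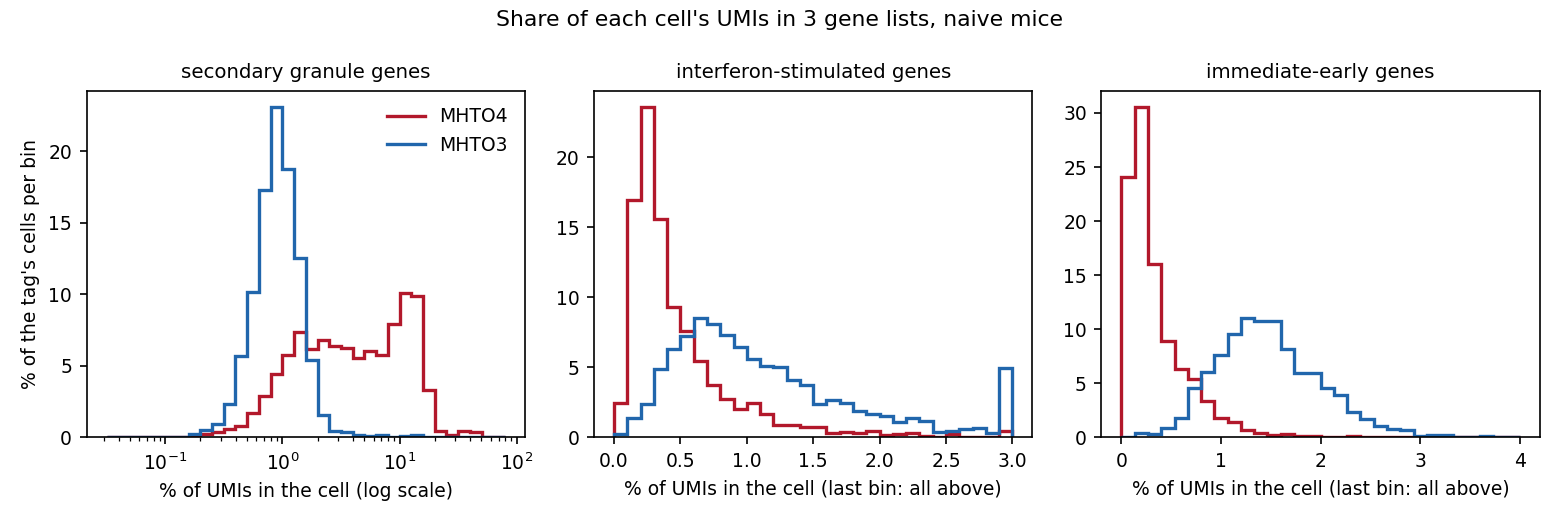
Share of each cell's UMIs from secondary granule genes (log scale), interferon-stimulated genes and immediate-early genes (horizontal axes), for 2062 MHTO4 and 2739 MHTO3 cells; the vertical axis is the percentage of the tag's cells in a bin. MHTO4 cells spread from the MHTO3 range to above 10% for secondary granule genes, and sit below most MHTO3 cells in the other lists.

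Depth differed between the tags, so shares of cells with a UMI were also taken after every cell was thinned to 1000 UMIs, which left out 41 MHTO4 and 79 MHTO3 cells. Camp was then found in 70.5% of MHTO4 and 31.6% of MHTO3 cells (84.7% of MHTO4 and 57.2% of MHTO3 cells before thinning). Free RNA in the lane was gauged in 43 tagged cells under the S100a8 and S100a9 minimum that had at least 3 UMIs from 5 B cell markers, a choice made after values had been seen; their median depth was 4415 UMIs. Camp was found in 14% of these cells (5.30 to 27.9), against 31.6% (29.8 to 33.4) of MHTO3 cells. Ltf was found in 54.3% of MHTO4 cells, 11.3% of MHTO3 cells and 2.33% (0.0589 to 12.3) of the B cell marker cells. That interval rests on 1 of 43 cells and holds the MHTO3 share, so these shares cannot tell MHTO3 from background. Ngp was found in 78.2% of MHTO4 cells, 31.5% of MHTO3 cells and 16.3% (6.81 to 30.7) of the B cell marker cells. In summed counts the B cell marker cells had 136 CPM of Camp, 127 CPM of Ngp and 39.3 CPM of Ltf, each below the MHTO3 level. For Chil3 they had 208 CPM, which is not below the MHTO3 level of 186 CPM. That level came from 90 UMIs found in only 14% of the 43 cells before thinning, so it is a weak gauge of free RNA. After thinning Chil3 was found in 4.65% (0.568 to 15.8) of the B cell marker cells and in 8.46% of MHTO3 cells. Ly6g was found in 40% of MHTO4 cells, 5.83% of MHTO3 cells and 0% of the 43 (upper bound 8.22%), so here too the shares cannot tell MHTO3 from background. Its summed level was 4.62 CPM (0.56 to 16.7) in the B cell marker cells and 98.5 CPM in MHTO3. Among the 110 MHTO3 cells under the S100 minimum, Camp was found in 33.6%, but 81.8% of those cells held Csf3r, the neutrophil growth factor receptor, so they do not stand for cells that lack granule genes.

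Primary granule genes were scarce in both tags. Only Elane and Serpinb1a of 10 members reached 20 CPM, and the other 8 lay under it, among them Mpo, myeloperoxidase (9.90 CPM in MHTO4 and 1.31 CPM in MHTO3), Prtn3 (17.3 CPM in MHTO4 and 6.57 CPM in MHTO3), Ctsg (4.91 CPM in MHTO4 and 0.584 CPM in MHTO3) and Ms4a3 (8.65 CPM in MHTO4 and 0.584 CPM in MHTO3). Serpinb1a, an inhibitor of the granule proteases, had 445 CPM in MHTO4 and 37.4 CPM in MHTO3 cells, a log2 ratio of 3.41, with UMIs in 1049 of the MHTO4 and 116 of the MHTO3 cells. Neutrophil elastase, Elane, had 42.7 CPM in MHTO4 and 1.17 CPM in MHTO3 cells, but 530 of its 547 UMIs in MHTO4 came from 1 cell, and its log2 ratio was 0.07 without the highest cell of each tag. Mpo likewise had 113 of its 127 MHTO4 UMIs in 1 cell, Prtn3 198 of 222, Ms4a3 55 of 111 and Ctsg 32 of 63. UMIs of Prtn3 were found in 25 MHTO4 and 43 MHTO3 cells.

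Some cell cycle genes were higher in MHTO4, and the proliferation genes among them were found in few cells. Of 9 measured members 4 were at least 2-fold higher in MHTO4 and 0 lower: Ube2c, a mitotic ubiquitin-conjugating enzyme (31.2 CPM in MHTO4 and 2.19 CPM in MHTO3, log2 ratio 2.33), Stmn1 (36.1 CPM in MHTO4 and 4.67 CPM in MHTO3, log2 ratio 2.09), the topoisomerase Top2a (20.7 CPM in MHTO4 and 1.46 CPM in MHTO3, log2 ratio 1.99) and Tuba1b (31.7 CPM in MHTO4 and 9.20 CPM in MHTO3, log2 ratio 1.37). UMIs of Mki67, a proliferation marker that stayed under 20 CPM, were found in 29 MHTO4 cells with up to 19 UMIs in a cell, and in 10 MHTO3 cells with 1 UMI each. Top2a was found in 30 MHTO4 and 10 MHTO3 cells, and Ube2c in 32 MHTO4 and 15 MHTO3 cells. Hmgb2 (1294 CPM in MHTO4 and 1361 CPM in MHTO3, log2 ratio -0.07) and Ran (39.0 CPM in MHTO4 and 36.8 CPM in MHTO3, log2 ratio 0.07) were near level. With every cell given equal weight, or thinned to 1000 UMIs, 0 of the 5 cell cycle genes that then reached the minimum passed 2-fold. After 20 MHTO4 and 3 MHTO3 cells rich in primary granule proteases or cell cycle genes were left out, Ube2c was at -0.14, Top2a at -0.10 and Tuba1b at -0.57.

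Among 12 measured transcription factors of granulopoiesis, 3 reached 2-fold as higher in MHTO4 and 4 as lower. Over all measured genes 5.04% were higher and 22.1% lower. Cebpe (ENSMUSG00000052435, chr14:54710360-54712174, minus strand), the factor of the secondary granule stage, had 280.3 CPM (271 to 289.6) in MHTO4 and 43.6 CPM (38.8 to 48.9) in MHTO3, a log2 ratio of 2.55; its UMIs were found in 924 MHTO4 and 241 MHTO3 cells. Klf5 (57.6 CPM in MHTO4 and 14.9 CPM in MHTO3, log2 ratio 1.65) and Lmo4 (482 CPM in MHTO4 and 238 CPM in MHTO3, log2 ratio 1.01) were the others that were higher. The related factors Cebpb (339.6 CPM in MHTO4 and 1379 CPM in MHTO3, log2 ratio -2.01) and Cebpd (473 CPM in MHTO4 and 1061 CPM in MHTO3, log2 ratio -1.16) went the other way. Zeb2 (18.9 CPM in MHTO4 and 123 CPM in MHTO3, log2 ratio -2.42) and Stat3, which carries the G-CSF signal (96.5 CPM in MHTO4 and 205 CPM in MHTO3, log2 ratio -1.05), were also lower, but with TMM scaling Cebpd (-0.66) and Stat3 (-0.57) did not reach 2-fold. The myeloid factors Cebpa (18.1 CPM in MHTO4 and 33.4 CPM in MHTO3) and Spi1, PU.1 (655 CPM in MHTO4 and 1234 CPM in MHTO3), did not reach 2-fold. Of the early factors, Gfi1 (7.41 CPM in MHTO4 and 0.876 CPM in MHTO3) and Myb (13.2 CPM in MHTO4 and 1.31 CPM in MHTO3) stayed under 20 CPM, and Gata2 had 9 UMIs in MHTO4 and 0 in MHTO3.

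Surface markers of neutrophil stage split by marker. Ly6g, the protein used to define mouse neutrophils, had 778 CPM in MHTO4 and 98.5 CPM in MHTO3, a log2 ratio of 2.92, and Ly6c2 had 737 CPM in MHTO4 and 115 CPM in MHTO3, a log2 ratio of 2.63. Cd101, a marker of mature neutrophils, had 27.4 CPM in MHTO4 and 125 CPM in MHTO3, a log2 ratio of -2.01. The chemokine receptor genes Cxcr2 (649.6 CPM in MHTO4 and 1699.7 CPM in MHTO3, log2 ratio -1.38) and Cxcr4 (280.3 CPM in MHTO4 and 629 CPM in MHTO3, log2 ratio -1.15) were lower as well. With TMM scaling Cxcr2 was at -0.88 and Cxcr4 at -0.66. Of 8 measured members 2 were at least 2-fold higher and 4 lower on the CPM scale, and 4 were higher and 1, Cd101, lower with TMM scaling. Cd24a (731 CPM in MHTO4 and 408 CPM in MHTO3, log2 ratio 0.83) and Cd63 (278 CPM in MHTO4 and 159 CPM in MHTO3, log2 ratio 0.79) were under 2-fold on the CPM scale. Kit (5.77 CPM in MHTO4 and 0.876 CPM in MHTO3) and Cd34 (0.468 CPM in MHTO4 and 1.46 CPM in MHTO3) stayed under 20 CPM.

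Genes of gelatinase granules and late maturation differed less. Of 10 measured, 1 passed 2-fold as higher and 1 as lower, with a median log2 ratio of 0.44. Mmp25, a membrane-bound metalloproteinase, was at 249 CPM in MHTO4 and 56.4 CPM in MHTO3. Slc11a1, a phagosomal metal transporter, was at 50.4 CPM in MHTO4 and 127 CPM in MHTO3. Retnlg, a resistin-like secreted protein, had 19146 CPM in MHTO4 and 10970.5 CPM in MHTO3, a log2 ratio of 0.80, and gelatinase B, Mmp9, had 2861 CPM in MHTO4 and 2068 CPM in MHTO3. With TMM scaling 4 of the 10 were higher and 0 lower.

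The MHTO4 cells were then ordered by the share of their UMIs from secondary granule genes and divided into 4 bands of 516, 516, 515 and 515 cells, at 1.64%, 3.99% and 9.95% of UMIs. The bands are ranges and not cell types: 116, 113 and 151 cells lay within 10% of the 3 boundaries. Median depth was 2709.5, 4438.5, 7049 and 9972 UMIs from the lowest band to the highest, so depth moves with the order and its part was not tested. Gelatinase granule genes, which the order did not use, were highest in the second band, with medians over cells of 2.36%, 4.34%, 3.01% and 0.792% of UMIs in bands 1 to 4 against 1.06% in MHTO3. Most of that share was its member Retnlg, so the order of bands is largely that of 1 gene. Retnlg had medians of 18586, 36545, 22741 and 3665 CPM in bands 1 to 4, against 6593 CPM in MHTO3. Mmp9, of the same list, was highest in band 3, with medians of 2616, 3514, 3569 and 2278 CPM in bands 1 to 4. Its MHTO3 median was 1933 CPM. Median S100a8 CPM was 110262, 167262, 193160.0 and 193131 in bands 1 to 4 and 64396 in MHTO3.

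Single receptor genes differed in their order over the bands. Csf3r had medians of 2040.3, 678, 336 and 149 CPM in bands 1 to 4, against 3254 CPM in MHTO3. Cxcr2 had 1546, 982, 599 and 189 CPM, against 1632 CPM in MHTO3. For both, medians were lower in each higher band, and band 1 was nearest to MHTO3. Ltb4r1, the leukotriene B4 receptor, ran the other way, with 76.1, 151, 309 and 505 CPM in the summed counts of bands 1 to 4 and 86.4 CPM in MHTO3. Cybb had medians of 0, 403, 1237 and 1959 CPM in bands 1 to 4 and 0 in MHTO3. Cebpe UMIs were found in 11.8%, 25%, 57.5% and 85.0% of the cells of bands 1 to 4, and Mki67 UMIs in 0%, 0.388%, 0.583% and 4.66%. Immediate-early genes were below MHTO3 also in band 1, where depth was nearest to that of MHTO3: their medians were 0.666%, 0.321%, 0.174% and 0.111% of UMIs in bands 1 to 4, against 1.43% in MHTO3. Dusp1 gave medians of 464, 196, 95.7 and 0 CPM in bands 1 to 4, against 2085 CPM in MHTO3.

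**Figure D3:**
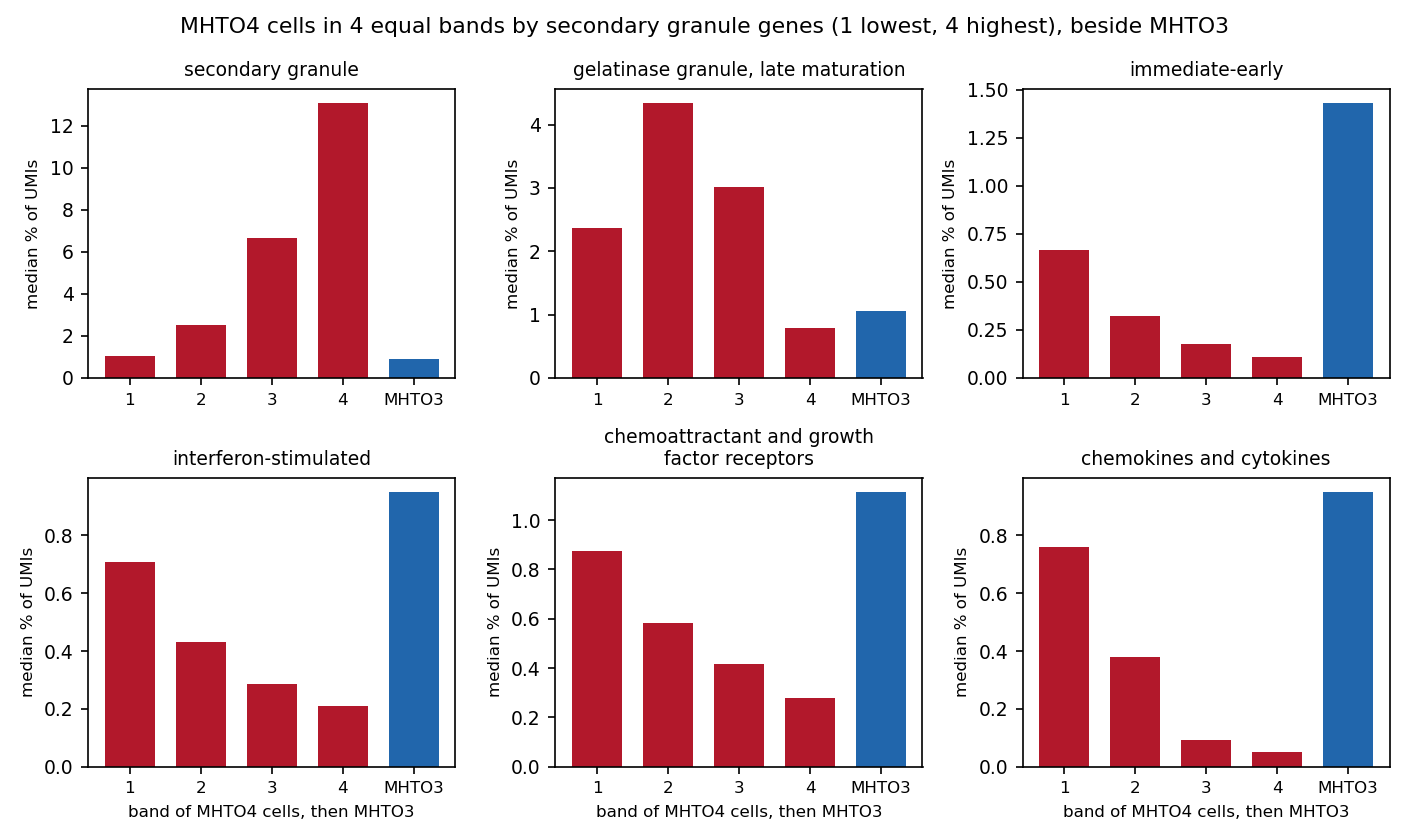
Median over cells of the share of UMIs in 6 gene lists (vertical axes, % of UMIs), for MHTO4 cells in 4 bands of equal size from the lowest (1) to the highest (4) share of secondary granule genes (red), and for all MHTO3 cells (blue). The gelatinase granule list, most of whose share is Retnlg, peaks at 4.34% in band 2. The immediate-early list stays below the MHTO3 median of 1.43% in every band.

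All 17 measured genes of the immediate-early list were at least 2-fold lower in MHTO4 (22.1% of all measured genes were), with a median log2 ratio of -2.41. Many of them, but not all, encode factors switched on within minutes of a stimulus. Fos (ENSMUSG00000021250, chr12:85473890-85477273, plus strand), a subunit of the AP-1 factor, had 35.9 CPM (32.7 to 39.3) in MHTO4 and 753 CPM (732 to 774) in MHTO3, a log2 ratio of -4.21. Its partners Junb (128 CPM in MHTO4 and 1500.3 CPM in MHTO3, log2 ratio -3.50), Jund (210.3 CPM in MHTO4 and 1468 CPM in MHTO3, log2 ratio -2.77) and Jun (11 CPM in MHTO4 and 74.3 CPM in MHTO3, log2 ratio -2.31) were lower too. Dusp1, a phosphatase that switches off MAP kinases, had 164 CPM in MHTO4 and 2331 CPM in MHTO3 cells. The anti-proliferative Btg1 (501 CPM in MHTO4 and 2819 CPM in MHTO3, log2 ratio -2.48), the quiescence factor Klf2 (288 CPM in MHTO4 and 1609.8 CPM in MHTO3, log2 ratio -2.46) and Zfp36, which speeds the decay of cytokine mRNA (143 CPM in MHTO4 and 783 CPM in MHTO3, log2 ratio -2.41), followed. The smallest differences were Fosl2 (106 CPM in MHTO4 and 221 CPM in MHTO3, log2 ratio -1.03) and Ier2 (169 CPM in MHTO4 and 354 CPM in MHTO3, log2 ratio -1.05). In thinned cells Fos was found in 4.65% of MHTO4 and 44.8% of MHTO3 cells, Junb in 16.1% of MHTO4 and 72.6% of MHTO3 cells, and Dusp1 in 19.6% of MHTO4 and 83.4% of MHTO3 cells. In the B cell marker cells, a type that can express these genes itself, the shares were 14% (5.30 to 27.9) for Fos, 27.9% (15.3 to 43.7) for Junb and 16.3% (6.81 to 30.7) for Dusp1. No MHTO4 share lay above the interval of these cells, and each MHTO3 share did. Their summed levels were 1216 CPM (1114 to 1324) for Fos, 1047 CPM for Junb and 497 CPM for Dusp1. The Fos level is above the 753 CPM of MHTO3, so these cells cannot gauge background for immediate-early genes. With TMM scaling 14 of the 17 kept a 2-fold difference.

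Interferon-stimulated genes, the antiviral programme that interferons switch on, were lower in MHTO4 in 26 of 30 measured members and higher in 0. Of all measured genes, 22.1% were lower. The list had a median log2 ratio of -1.78. Ifitm1 (ENSMUSG00000025491, chr7:140967221-140969825, plus strand), a membrane protein that blocks virus entry, had 178 CPM in MHTO4 and 1523 CPM in MHTO3, a log2 ratio of -3.06. Ifitm2 (765 CPM in MHTO4 and 2706 CPM in MHTO3, log2 ratio -1.82) and Ifi27l2a (310.2 CPM in MHTO4 and 1513 CPM in MHTO3, log2 ratio -2.27) were among the abundant members. Ifitm3, of the same family, was less different at 1028 CPM in MHTO4 and 1337 CPM in MHTO3. Slfn5 (20.6 CPM in MHTO4 and 187 CPM in MHTO3, log2 ratio -2.91), Ifit3 (12.2 CPM in MHTO4 and 116 CPM in MHTO3, log2 ratio -2.82), the oligoadenylate synthetase-like Oasl2 (71.6 CPM in MHTO4 and 448 CPM in MHTO3, log2 ratio -2.57), the ubiquitin-like Isg15 (60.7 CPM in MHTO4 and 309 CPM in MHTO3, log2 ratio -2.25) and viperin, Rsad2 (50.1 CPM in MHTO4 and 259 CPM in MHTO3, log2 ratio -2.26), were each lower. Ifit3 has a near-identical neighbour, Ifit3b (13.1 CPM in MHTO4 and 91.2 CPM in MHTO3), and reads of the pair may be split between them. The transducer gene Stat2 (11.3 CPM in MHTO4 and 32.0 CPM in MHTO3, log2 ratio -1.18) and the interferon regulatory factor Irf7 (40.1 CPM in MHTO4 and 142 CPM in MHTO3, log2 ratio -1.71) were at least 2-fold lower. Those that did not reach 2-fold were Cmpk2 (77.7 CPM in MHTO4 and 80.3 CPM in MHTO3), Ifitm3, Slfn4 and Xaf1. The list's median share of UMIs per cell was 0.342% in MHTO4 and 0.952% in MHTO3, and with TMM scaling 22 of 29 measured members were lower.

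The windows of 2 of these genes are shown for the interferon response element, spelled GAAA, any 2 bases, GAAA, with matches on either strand in capitals (RefSeq, GRCm38.p6, 250 bases before to 50 after the gene start).
Ifit3, chr19:34583279-34583578, plus strand: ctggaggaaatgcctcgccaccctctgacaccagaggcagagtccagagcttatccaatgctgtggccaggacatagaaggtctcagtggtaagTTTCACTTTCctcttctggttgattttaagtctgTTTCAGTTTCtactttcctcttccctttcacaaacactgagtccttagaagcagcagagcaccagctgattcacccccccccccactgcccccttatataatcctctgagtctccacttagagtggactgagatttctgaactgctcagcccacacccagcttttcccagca
Isg15, chr4:156200769-156201068, minus strand: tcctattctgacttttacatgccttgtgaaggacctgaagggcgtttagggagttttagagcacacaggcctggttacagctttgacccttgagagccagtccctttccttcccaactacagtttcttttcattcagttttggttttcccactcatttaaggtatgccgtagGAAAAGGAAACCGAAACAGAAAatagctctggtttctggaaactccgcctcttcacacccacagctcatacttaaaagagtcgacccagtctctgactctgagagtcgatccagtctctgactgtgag
Ifit3 held 2 matches and Isg15 3 that overlap. The windows of Ifitm1 and Oasl2, also named above, held 0. The Ifitm1 window (chr7:140967826-140968125) lies inside the GENCODE span given above. The bases before the GENCODE start of Ifitm1 were therefore not searched. A match was found in 13 of 25 list members with a single window (52%), in 7.79% of genes at least 2-fold lower in MHTO4 and in 4.03% of those at least 2-fold higher. The share was 4.26% of measured genes and 3.58% of all windows. The PU.1-type motif GAGGAAGT was found in 7.38% of genes at least 2-fold higher, 4.71% of those at least 2-fold lower, 4.33% of measured genes and 3.32% of all windows.

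Antigen presentation by MHC class I, which interferons raise, was lower with a smaller ratio. Of 14 measured genes, 10 were at least 2-fold lower (22.1% of all measured genes were) and 0 higher, with a median of -1.16. H2-D1, a heavy chain, had 1490.2 CPM in MHTO4 and 4204 CPM in MHTO3 cells, H2-K1 315 CPM in MHTO4 and 898 CPM in MHTO3 and the light chain B2m 859 CPM in MHTO4 and 1959 CPM in MHTO3. The peptide transporter Tap1 (37.1 CPM in MHTO4 and 97.1 CPM in MHTO3) and the immunoproteasome subunits Psmb8 (86.8 CPM in MHTO4 and 205 CPM in MHTO3) and Psmb9 (85.6 CPM in MHTO4 and 184 CPM in MHTO3) were lower, while the proteasome activators Psme1 (100.3 CPM in MHTO4 and 125 CPM in MHTO3) and Psme2 (73.4 CPM in MHTO4 and 80.3 CPM in MHTO3) were near level. With TMM scaling 2 of the 14 passed 2-fold, so 8 of the 10 differences depended on the scaling.

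Of 11 measured chemokines and cytokines, 9 were at least 2-fold lower in MHTO4 (22.1% of all measured genes were) and 0 higher. Il1b (ENSMUSG00000027398, chr2:129364570-129371139, minus strand), interleukin 1 beta, had 246 CPM (237 to 254) in MHTO4 and 3296 CPM (3254 to 3339.8) in MHTO3, a log2 ratio of -3.72, and was found in 23.7% of thinned MHTO4 and 86.8% of thinned MHTO3 cells. The B cell marker cells held it in 25.6% (13.5 to 41.2) and at 330.5 CPM (279 to 389). The pooled MHTO4 share and level were not above these, and the MHTO3 values were. In bands 1 to 4 of the MHTO4 cells the summed level was 986, 239, 144 and 108 CPM. Band 1 was thus above the B cell marker cells and bands 2 to 4 below, so MHTO4 as a whole is not read as background. Csf1, the macrophage growth factor, had 11.9 CPM in MHTO4 and 148 CPM in MHTO3 cells, and the chemokine Ccl6 had 1445 CPM in MHTO4 and 5192 CPM in MHTO3. Cxcl2, which recruits neutrophils, was at 71.9 CPM in MHTO4 and 229.8 CPM in MHTO3, and at 7206 CPM in the third naive tag, MHTO5. Tnfsf13b (51.1 CPM in MHTO4 and 41.3 CPM in MHTO3) and Osm (29.9 CPM in MHTO4 and 43.2 CPM in MHTO3) did not reach 2-fold. In the NF-kB feedback list 8 of 13 were lower and 0 higher, with Tnfaip2 (188 CPM in MHTO4 and 908 CPM in MHTO3, log2 ratio -2.25) leading and the inhibitor Nfkbia at 179 CPM in MHTO4 and 376 CPM in MHTO3. With TMM scaling 6 of 11 chemokines and cytokines and 3 of 12 NF-kB feedback genes passed.

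Receptors for chemoattractants and growth factors were lower in 17 of 23 measured members and higher in 2, with a median log2 ratio of -1.57. Of all measured genes, 22.1% were lower and 5.04% higher. Csf3r (ENSMUSG00000028859, chr4:126024550-126044440, plus strand), the G-CSF receptor, had 555 CPM (542 to 568) in MHTO4 and 3196 CPM (3154 to 3239) in MHTO3, a log2 ratio of -2.51. Il1rap (20.3 CPM in MHTO4 and 130.1 CPM in MHTO3, log2 ratio -2.42), the decoy receptor Il1r2 (229 CPM in MHTO4 and 689 CPM in MHTO3, log2 ratio -1.57), Ccr1 (273 CPM in MHTO4 and 849 CPM in MHTO3, log2 ratio -1.62) and the platelet-activating factor receptor Ptafr (107 CPM in MHTO4 and 348 CPM in MHTO3, log2 ratio -1.66) were lower. Ltb4r1, the leukotriene B4 receptor, went the other way with 333 CPM in MHTO4 and 86.4 CPM in MHTO3 cells, as did S1pr4 (65.5 CPM in MHTO4 and 22.9 CPM in MHTO3). The formyl peptide receptors Fpr1 (252 CPM in MHTO4 and 229 CPM in MHTO3) and Fpr2 (412 CPM in MHTO4 and 226 CPM in MHTO3) and the complement receptor C5ar1 (442 CPM in MHTO4 and 746 CPM in MHTO3) did not reach 2-fold. With TMM scaling 12 of 23 were lower and 3 higher.

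Adhesion genes were mixed, with 2 of 15 at least 2-fold higher and 7 lower, beside 5.04% and 22.1% of all measured genes. Itgb2l (ENSMUSG00000000157, chr16:96422288-96443619, minus strand), a beta integrin close to Itgb2, had 293 CPM in MHTO4 and 18.0 CPM in MHTO3 cells, a log2 ratio of 3.70, and Ceacam1 had 143 CPM in MHTO4 and 33.6 CPM in MHTO3. The integrin alpha 4 gene Itga4 (33.8 CPM in MHTO4 and 253 CPM in MHTO3, log2 ratio -2.73), Itgax (5.77 CPM in MHTO4 and 48.9 CPM in MHTO3, log2 ratio -2.32), Itgal (240.5 CPM in MHTO4 and 654 CPM in MHTO3, log2 ratio -1.42) and the selectin ligand Selplg (456 CPM in MHTO4 and 1600.0 CPM in MHTO3, log2 ratio -1.80) were lower. Of the Mac-1 subunits, Itgb2 (550.1 CPM in MHTO4 and 581 CPM in MHTO3) was near level. Itgam (664 CPM in MHTO4 and 448 CPM in MHTO3) was under 2-fold on the CPM scale and at 1.06 with TMM scaling. With TMM scaling 4 of 14 were higher and 4 lower.

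Of 18 measured pattern recognition and Fc receptor genes, 10 were at least 2-fold lower (22.1% of all measured genes were) and 1 higher. Cd14 (36.3 CPM in MHTO4 and 220.4 CPM in MHTO3, log2 ratio -2.45), the inflammasome sensor Nlrp3 (47.5 CPM in MHTO4 and 223 CPM in MHTO3, log2 ratio -2.12) and Clec4d (269 CPM in MHTO4 and 854 CPM in MHTO3, log2 ratio -1.65) were lower, Tyrobp, the adaptor of many activating receptors, had 3317 CPM in MHTO4 and 8667 CPM in MHTO3, and the inhibitory lectin Clec12a was higher (250.1 CPM in MHTO4 and 105 CPM in MHTO3, log2 ratio 1.21). In the survival and death list 9 of 15 were lower and 0 higher: the anti-apoptotic Mcl1 had 432 CPM in MHTO4 and 2017 CPM in MHTO3 cells and the BH3-only gene Pmaip1 10.2 CPM in MHTO4 and 87.2 CPM in MHTO3. Bcl2a1a and Bcl2a1b, also lower, are near-identical copies whose reads may be split. With TMM scaling 4 of 19 pattern recognition genes and 4 of 14 survival genes passed as lower.

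The NADPH oxidase, which makes superoxide, differed in its catalytic subunit. Cybb (ENSMUSG00000015340, chrX:9435252-9487771, minus strand) had 1281 CPM (1262 to 1301) in MHTO4 and 133 CPM (124 to 142) in MHTO3, a log2 ratio of 3.22, while its membrane partner Cyba was level (1656 CPM in MHTO4 and 1650.2 CPM in MHTO3). The cytosolic subunits Ncf1 (862 CPM in MHTO4 and 496 CPM in MHTO3) and Ncf4 (394 CPM in MHTO4 and 331 CPM in MHTO3) were under 2-fold, and Rac1 had 231 CPM in MHTO4 and 474 CPM in MHTO3, log2 ratio -1.02. With TMM scaling Rac1 was at -0.53 and Ncf1 at 1.29, which gave 2 of 8 oxidase genes higher and 0 lower in place of 1 and 1. In the lipid mediator list, Lta4h, which makes leukotriene B4, had 172 CPM in MHTO4 and 22.8 CPM in MHTO3 cells. Pla2g7, which inactivates platelet-activating factor, had 109 CPM in MHTO4 and 1015 CPM in MHTO3 cells, and Ptgs2 had 7.88 CPM in MHTO4 and 52 CPM in MHTO3. Alox5 (156 CPM in MHTO4 and 153 CPM in MHTO3), the first enzyme of leukotriene synthesis, was level.

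**Figure D4:**
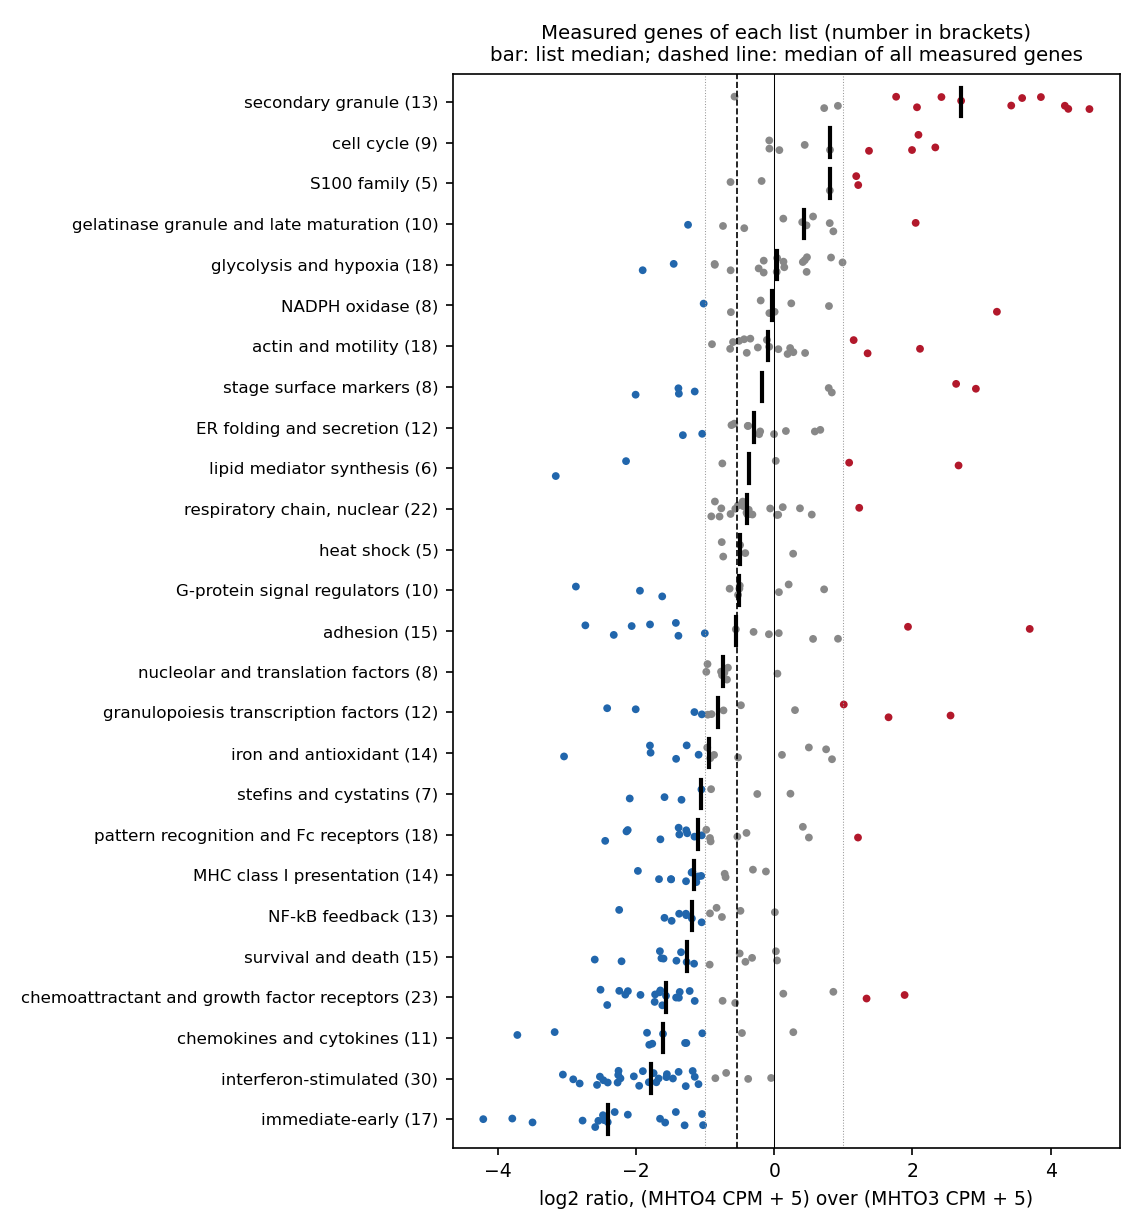
Log2 ratios of MHTO4 over MHTO3 (horizontal axis) for the measured genes of the lists with at least 5 of them, ordered by list median (black bars); red points are at least 2-fold higher, blue at least 2-fold lower, and the dashed line is the median of all measured genes, -0.54. The secondary granule list (median 2.71) and the immediate-early list (median -2.41) lie at the ends.

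S100a8 and S100a9, which the rule used to pick cells, had 178766 and 194346 CPM in MHTO4 and 76974 and 85375 CPM in MHTO3; S100a6 (7690.2 CPM in MHTO4 and 8731 CPM in MHTO3) and S100a11 (4972 CPM in MHTO4 and 7713 CPM in MHTO3) were under 2-fold. Ferritin genes were lower in MHTO4: Fth1 had 2944 CPM in MHTO4 and 10195 CPM in MHTO3 cells and Ftl1 2894 CPM in MHTO4 and 7759 CPM in MHTO3, and the iron exporter Slc40a1 had 149.7 CPM in MHTO4 and 534 CPM in MHTO3. Steap4, a metalloreductase, had 4.05 CPM in MHTO4 and 69.6 CPM in MHTO3, and 6 of 14 iron and antioxidant genes were lower and 0 higher, which became 3 lower and 2 higher with TMM scaling. The non-coding RNA Malat1, kept in the nucleus, had 9304 CPM in MHTO4 and 27484 CPM in MHTO3 cells, a log2 ratio of -1.56, and Fau 2756 CPM in MHTO4 and 7181 CPM in MHTO3. Wfdc17, a small secreted protease inhibitor gene, had 91.9 CPM in MHTO4 and 1326 CPM in MHTO3, log2 ratio -3.78, with 87.8 CPM in the B cell marker cells, and Fgl2 had 90.7 CPM in MHTO4 and 1162 CPM in MHTO3, log2 ratio -3.61. Socs3, a feedback inhibitor of STAT3 signals, had 14.1 CPM in MHTO4 and 208 CPM in MHTO3, log2 ratio -3.48, and the predicted gene Gm34455 6.71 CPM in MHTO4 and 159 CPM in MHTO3, log2 ratio -3.81. Adpgk, an ADP-dependent glucokinase, was higher with 874 CPM in MHTO4 and 77.2 CPM in MHTO3, log2 ratio 3.42.

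Glycolysis genes had a median of 0.04 with 2 of 18 at least 2-fold lower (22.1% of all genes were) and 0 higher. The lower ones were the glucose transporter gene Slc2a1 (10.3 CPM in MHTO4 and 52.3 CPM in MHTO3) and Ndrg1 (31.7 CPM in MHTO4 and 95.8 CPM in MHTO3). With TMM scaling 2 glycolysis genes were lower and 2 higher. Gapdh, a glycolytic enzyme, had 1412 CPM in MHTO4 and 1016 CPM in MHTO3. Ribosomal protein genes had a median of -0.72 with 18 of 82 lower (22.1% of all genes were), and 0 with TMM scaling. Nuclear respiratory chain genes had 1 of 22 higher (Uqcrb, 80.7 CPM in MHTO4 and 31.5 CPM in MHTO3) and 0 lower, and 10 mitochondrial genes had a median of 0.48 with 0 past 2-fold, and 5 of 11 were higher with TMM scaling. No heat shock gene of 5 (Hspa8 352 CPM in MHTO4 and 472 CPM in MHTO3) and no translation factor of 8 (Eef1a1 399 CPM in MHTO4 and 644 CPM in MHTO3) reached 2-fold. ER folding genes had 2 of 12 lower (22.1% of all genes were) and 0 higher. The lower ones were Hspa5 (81.2 CPM in MHTO4 and 173 CPM in MHTO3) and Xbp1 (60.2 CPM in MHTO4 and 158 CPM in MHTO3). But with TMM scaling 2 ER folding genes were higher and 0 lower. In the actin list 3 of 18 were higher, Capg (301 CPM in MHTO4 and 66.0 CPM in MHTO3), Tmsb10 (505 CPM in MHTO4 and 195 CPM in MHTO3) and Arhgdib (2371 CPM in MHTO4 and 1066 CPM in MHTO3), and Actb (16774 CPM in MHTO4 and 17645 CPM in MHTO3), Pfn1 (3267 CPM in MHTO4 and 2858 CPM in MHTO3) and Tmsb4x (19934 CPM in MHTO4 and 28375 CPM in MHTO3) were under 2-fold. G-protein regulators had 3 of 10 lower, near the 22.1% of all genes. These were Gngt2 (20.2 CPM in MHTO4 and 179 CPM in MHTO3), Rgs2 (192 CPM in MHTO4 and 752 CPM in MHTO3) and Rgs3 (40.8 CPM in MHTO4 and 136 CPM in MHTO3). Stefins and cystatins had 4 of 7 lower, among them Stfa2l1 (390.0 CPM in MHTO4 and 997 CPM in MHTO3) and Cst3 (467 CPM in MHTO4 and 1415 CPM in MHTO3). The stefin genes are a family of close copies, so their reads may be split. With TMM scaling 2 of the 7 were lower, with Stfa2l1 at -0.85 and Cst3 at -1.09, and in thinned cells 1 was.

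**Figure D5:**
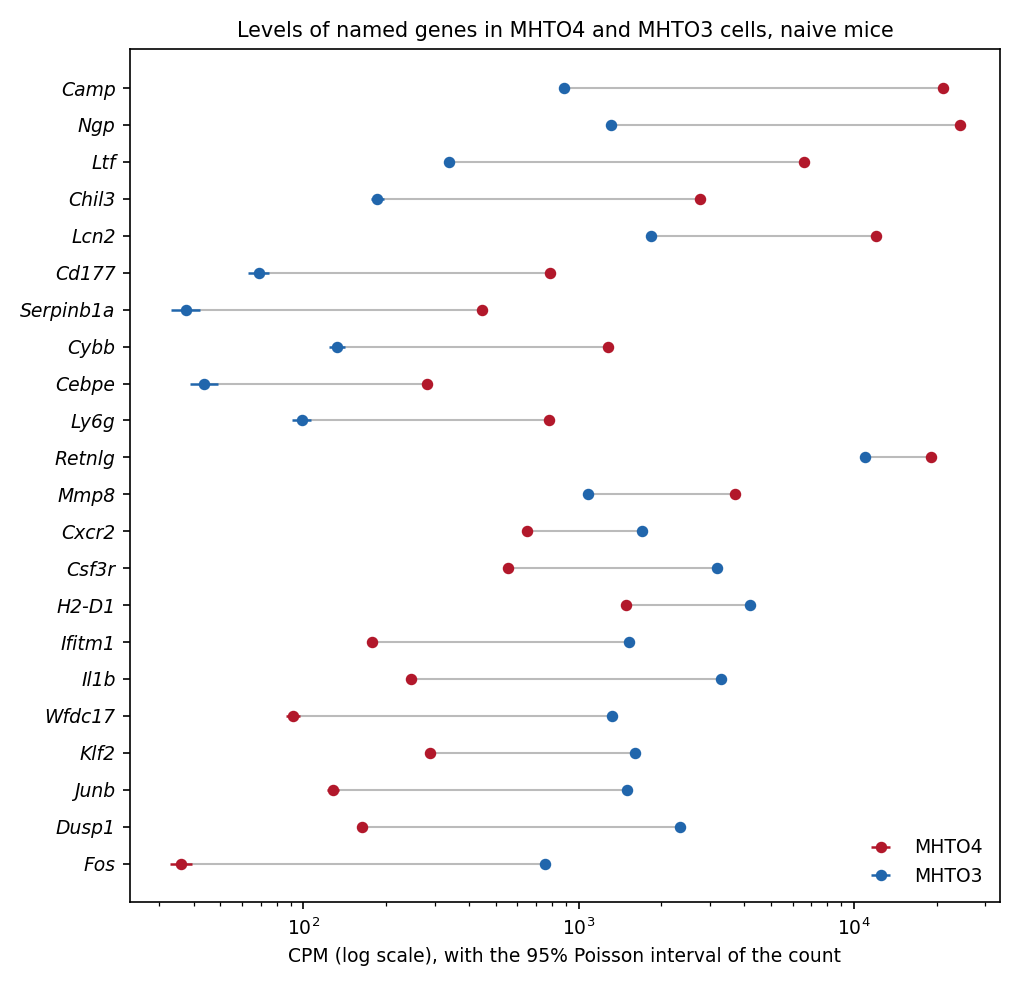
Levels of 22 named genes in MHTO4 (red) and MHTO3 (blue) cells, as CPM on a log scale; bars are 95% Poisson intervals of the summed count and are mostly narrower than the points. The upper genes, from Camp to Mmp8, are higher in MHTO4 and the lower ones, from Cxcr2 to Fos, are higher in MHTO3.

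Some of the largest ratios rested on 1 cell. Sftpc had 481 CPM in MHTO4 and 31.5 CPM in MHTO3 and Prss34 71.5 CPM in MHTO4 and 1.46 CPM in MHTO3, and on the other side Hba-a1 had 9.12 CPM in MHTO4 and 269 CPM in MHTO3 and Hbb-bs 29.9 CPM in MHTO4 and 475 CPM in MHTO3. Of the MHTO4 UMIs of Sftpc, a surfactant protein of lung alveolar cells, 5964 of 6170 lay in 1 cell, and of Prss34, a basophil and mast cell protease, 907 of 917. Of the MHTO3 UMIs, 1 cell held 1574 of 1845 for Hba-a1, 1419 of 1586 for Hba-a2, 2883 of 3256 for Hbb-bs and 750 of 835 for Hbb-bt, the haemoglobin genes, which are pairs of near-identical copies. Without the highest cell of each tag for each gene, Sftpc was at -0.78 and Prss34 at -0.13, and 211 genes were at least 2-fold higher and 964 lower, against 222 and 973 with all cells. Counts of the main lists did not depend on such cells: the secondary granule, interferon-stimulated and immediate-early counts were 10, 26 and 17 both with and without them.

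Neutrophil markers summed to 414426 CPM in MHTO4 and 188032 CPM in MHTO3. Most of both sums came from S100a8 and S100a9, which the rule used to pick cells. The size of these sums is therefore no check of cell type. Markers of other cell types had lower sums. B cell markers summed to 86.2 CPM in MHTO4 and 216 CPM in MHTO3, nearly all of it Ighm (76.5 CPM in MHTO4 and 202 CPM in MHTO3), and T cell markers to 19.9 CPM in MHTO4 and 28.9 CPM in MHTO3. Monocyte or macrophage markers summed to 35.8 CPM in MHTO4 and 135 CPM in MHTO3, of which Csf1r gave 23.9 CPM in MHTO4 and 132 CPM in MHTO3, with Cx3cr1 at 0 in both. Eosinophil markers summed to 4.21 CPM in MHTO4 and 22.2 CPM in MHTO3, with Epx, Prg2 and Prg3 at 0 in both. Basophil or mast cell markers (104 CPM in MHTO4, 1.9 CPM in MHTO3) and lung epithelial markers (662 CPM in MHTO4, 215 CPM in MHTO3) held single MHTO4 cells named above. Erythroid markers (52.4 CPM in MHTO4, 1102 CPM in MHTO3) held a single MHTO3 cell. The lung marker Scgb1a1 was instead spread thinly, with 1128 UMIs in 853 MHTO4 cells and 1210 UMIs in 968 MHTO3 cells. Its highest cell held 7 UMIs in MHTO4 and 4 in MHTO3. Platelet markers summed to 4.60 CPM in MHTO4 and 39.4 CPM in MHTO3, and early progenitor markers to 20.7 CPM in MHTO4 and 5.99 CPM in MHTO3. After cells with at least 1% of UMIs from such markers were left out (5 MHTO4 and 4 MHTO3 cells), 216 genes were at least 2-fold higher and 972 lower, and the secondary granule count stayed at 10 of 13 and the interferon-stimulated count at 26 of 30.

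The third naive tag, MHTO5, with 2194 kept cells, lay nearer to MHTO3 in granule genes, with Camp at 687 CPM, Ngp at 849 CPM, Ltf at 236 CPM and Cebpe at 19.2 CPM. In its immediate-early and cytokine genes it lay above both tags, with Fos at 1059 CPM, Dusp1 at 3789 CPM and Il1b at 15438 CPM.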

How the data were processed

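The authors deposited unnormalized UMI counts for every gene in every called barcode. The submitters' processing notes name bcl2fastq 2.20.0.422, Cell Ranger 4.0.0 and the build mm10. Hashtag counts per barcode were deposited as well, and neither the program behind them nor its UMI handling is stated in the labels. The naive RNA and hashtag counts were joined by barcode, and cells were tagged and kept by the rule in the opening. No doublet caller was used beyond the tag call; Scrublet, run as an alternative, marked 0.558% of the kept tagged naive cells and 31.0% of barcodes without a tag call.

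Counts were summed per tag and scaled to CPM. A gene was measured at 20 CPM in the higher tag, and log2 ratios are log2((MHTO4 CPM + 5)/(MHTO3 CPM + 5)), which understates ratios of low genes; a difference of 2-fold on this scale was counted. With 1 sample per tag no test was made, so adjusted p-values are not given. UMI counts limit precision: intervals are 95%, exact, and cover counting error only. Genes named are the 12 with the largest log2 ratio in each direction, the 6 with the largest CPM difference in each direction and, from each list, up to 4 members with the highest CPM and the member with the largest ratio in each direction; all members of the granule, stage marker and transcription factor lists may be given, and other list members named were chosen after their values were seen. Members and lists were chosen with earlier results of these data known, and the B cell marker cells, single-cell checks and genes outside the lists after values were seen. Alternatives were other scalings, minimums, added CPM, tag calls and cell filters. The calculation was tested on simulated data. Tools were Python 3.11.15, numpy 2.4.6, scipy 1.17.1, pandas 2.3.3, scanpy 1.11.5, matplotlib 3.10.9, R 4.3.3 and edgeR 4.0.16 (TMM factors only). Some genes of the lists are not reported here.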

Additional observations from a re-analysis of the deposited data

Results flagged for a closer look

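Cells tagged MHTO4 that fell under the S100a8 and S100a9 minimum, 68 in number and outside the comparison above, held transcripts of several cell types. The primary granule genes Elane and Mpo were found in few of them. Hbb-bs, a haemoglobin gene, reached 25375 CPM there, from 19859 UMIs in 17 cells, and 27 of them met the B cell marker rule. Elane reached 2167 CPM there (2065 to 2273), from 1696 UMIs in 4 cells, and Mpo 883 CPM from 691 UMIs in 4 cells. The proliferation marker Mki67 reached 291 CPM from 228 UMIs in 18 cells, whose cell type was not determined. The levels of Elane, Mpo and Mki67 each lie above the 3.83 CPM that a count of 3 in those cells would give. The kept MHTO4 cells had 42.7 CPM of Elane, 9.90 of Mpo and 16.5 of Mki67. These cells are drawn together by the rule that left them out, and no group was compared on them.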

How the results depend on the processing

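No paired analysis was possible because each tag is 1 sample, which also leaves no replicate to leave out. Scaling moved the counts most. Genes at least 2-fold higher and lower in MHTO4 numbered 440 and 385 with TMM scaling, 712 and 436 with totals that leave out the 20 most abundant genes, and 471 and 343 with the median of all genes set to 0. MHC class I genes lower in MHTO4 fell to 2 in each of these 3, and to 6 in cells thinned to 1000 UMIs, and receptors lower to 11 with totals without the 20 genes. With equal weight for every cell 603 genes were lower. Over the other settings, which keep the totals, the higher count ran over 167 to 321 and the lower over 603 to 1148. Over all settings secondary granule genes higher were 10 to 12, immediate-early genes lower 13 to 17 and interferon-stimulated genes lower 20 to 27.

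Direction turned for genes held by few cells. Sftpc was at -0.78 with a tag call at 95% and 50 counts, -0.73 with an S100 minimum of 5%, -0.79 without cells rich in markers of other types and -0.78 without the 1 highest cell. Prss34 was at -0.19 with the 5% minimum, -0.16 without cells of other types, -0.15 without precursor or cycling cells and -0.13 without the 1 cell. With no S100 minimum Hba-a1 was at 0.64, Hba-a2 at 0.49, Hbb-bs at 1.31 and Hbb-bt at 1.23, and Hba-a2 was at 0.024 without cells of other types. Without precursor or cycling cells Top2a was at -0.10, Tuba1b at -0.57 and Ube2c at -0.14. Leaving out the 1 cell and subtracting the median were chosen after seeing the data. Where a value changed for another reason than its own construction, the cause was not tested.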

Other observations

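Genes outside the lists, chosen here after their values were seen, also differed between the tags. Ifitm6, of the interferon-induced transmembrane family, had 2076 CPM in MHTO4 and 350.2 CPM in MHTO3, a log2 ratio of 2.55 and so opposite in direction to Ifitm1. Anxa3, an annexin of neutrophil granules, had 205 CPM in MHTO4 and 25 CPM in MHTO3 cells, the actin-severing protein gene Dstn 837 CPM in MHTO4 and 171 CPM in MHTO3, the glutathione transferase Mgst2 139 CPM in MHTO4 and 15.6 CPM in MHTO3 and the nuclear envelope protein gene Syne1 287 CPM in MHTO4 and 34.6 CPM in MHTO3. Lower genes included serglycin, Srgn, the proteoglycan that packs granule proteins (760.1 CPM in MHTO4 and 4115 CPM in MHTO3), Ly6e (94.3 CPM in MHTO4 and 704 CPM in MHTO3), the glucocorticoid-induced Tsc22d3 (212 CPM in MHTO4 and 1162 CPM in MHTO3), Marcks (182 CPM in MHTO4 and 1213 CPM in MHTO3) and Gm2a (63.2 CPM in MHTO4 and 528 CPM in MHTO3).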
